A study of Homo sapiens with 6 samples.

Results

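The keratins described here are 10 epithelial intermediate filament genes, KRT5, KRT7, KRT8, KRT14, KRT15, KRT17, KRT18, KRT19, KRT80 and KRT81. They were picked by gene symbol, with earlier results of these data known. All 10 were found among the 28008 genes of the count table, which holds 55 keratin genes. Their transcripts were measured by RNA-Seq in DU-145-DR/tet-MUC1shRNA cells. DU-145 is an established human prostate cancer line, and the DR derivative was selected by continuous exposure to docetaxel (DTX), a taxane that blocks microtubule turnover. The cells carry a puromycin-selected vector from which doxycycline (DOX) induces a hairpin against MUC1, the gene for a transmembrane mucin. DOX-negative cultures received dimethyl sulfoxide vehicle (n = 3 libraries) and DOX-positive cultures received DOX at 500 ng/ml for 7 days (n = 3 libraries), so both groups share the DTX-resistant background. Only the DOX-positive libraries have a treatment label that names the hairpin, whereas DTX resistance is what the label of the others gives, and that the DOX-negative cells carry the hairpin is taken from the DOX state in the sample titles and from the study. No library of DOX-treated cells with a control hairpin was analysed here, so MUC1 silencing and DOX exposure cannot be told apart.

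Keratins form the intermediate filaments of epithelial cells. Each filament is built from obligate pairs of an acidic type I chain and a basic type II chain, and an unpaired chain is usually degraded. Simple, single-layered epithelia and the luminal cells of the prostate are known for KRT8 and KRT18, often with KRT7 and KRT19, whereas the basal cells beneath them are known for KRT5, KRT14, KRT15 and KRT17. KRT80 is a type II keratin found in many epithelia, and KRT81 is a type II keratin best known from hair.

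All keratins share a central helical rod flanked by more variable ends, and their coding sequences differ in how alike they are. Over aligned coding bases KRT7 and KRT8 were 72.8% identical, KRT18 and KRT19 were 62.6% identical, and KRT8 and KRT80 were 62.3% identical. KRT14 and KRT17 were 84.7% identical. The closest were KRT81 and its hair keratin relatives, at 93.6% with KRT86 and 93.4% with KRT83. To see how far reads could be shared, each principal transcript was cut into all windows of 50 bases, and the share of windows found without mismatch in transcripts of other genes was counted. This share was 44.6% for KRT81, with KRT86 alone accounting for 38.4%, 32.7% for KRT8 and 31.8% for KRT18. It was 23.8% for KRT14, 17.4% for KRT17, 3.99% for KRT5, 1.79% for KRT19, 0.997% for KRT7, 0.420% for KRT80 and 0.328% for KRT15. For KRT8 and KRT18 the other genes included their many processed pseudogenes, of which GENCODE names 50 and 68. The count table held 9 keratin pseudogenes with a symbol of a keratin name, P and a number. None exceeded 19 counts in any library, the highest being KRT16P2. KRT87P, which shared 9.04% of the KRT81 windows, falls outside that naming pattern and was not counted. Reads from pseudogenes absent from the count table could not be seen.

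The genes lie in 2 clusters. In GENCODE 29 on GRCh38, the type II genes are at chr12:52168996-52192000 on the minus strand (KRT80), chr12:52232520-52252186 on the plus strand (KRT7), chr12:52285913-52291534 on the minus strand (KRT81), chr12:52514575-52520687 on the minus strand (KRT5) and chr12:52897187-52949954 on the minus strand (KRT8). The type I genes on chromosome 17 are all on the minus strand, at chr17:41513743-41522529 (KRT15), chr17:41523617-41528308 (KRT19), chr17:41582279-41586921 (KRT14) and chr17:41619441-41624842 (KRT17). KRT18 is the exception, a type I gene at chr12:52948871-52952901 on the plus strand, beside its partner KRT8. The annotated spans of KRT8 and KRT18 overlap by 1084 bases on opposite strands, with up to 302 bases shared between exons. KRT7 overlaps the antisense gene KRT7-AS, with up to 282 bases shared between exons, and KRT81 lies inside the span of KRT86 on the opposite strand with 0 bases shared between exons. The library kit keeps strand, but whether the counting used it is not given in the sources used here, so reads from the overlapping exons cannot be assigned to 1 strand with certainty.

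Total counts per library ranged from 15092691 to 23243713, and a count of 3 corresponded to between 0.131 and 0.202 counts-per-million (CPM, here on library totals scaled by edgeR's trimmed mean of M values). Counts of MUC1, the targeted gene, were 387, 484 and 396 without DOX and 75, 74 and 66 with DOX, a log2 fold change of -2.52 (edgeR, Benjamini-Hochberg adjusted p = 4.47e-11). Among luminal prostate markers, KLK3 and HOXB13 had 0 counts in every library, and TMPRSS2 and ACPP had at most 3. Of 4 basal prostate markers only DST, a plakin expressed in many cell types, had enough reads to be tested, and it did not pass (log2 fold change -0.10, adjusted p = 0.400). The epithelial marker list (6 genes) summed to between 84.0 and 94.3 CPM in the DOX-negative libraries and between 183 and 213 CPM in the DOX-positive libraries. Of its 5 genes that could be tested, EPCAM, an epithelial adhesion molecule, was higher with DOX by 1.43 on the log2 scale (adjusted p = 1.68e-11), ESRP1, an epithelial splicing regulator, by 1.66 (adjusted p = 1.80e-07), and CDH1, or E-cadherin, by 0.92 (adjusted p = 3.01e-08), while CLDN4 and CLDN7 did not pass the test. Their part in the keratin values was not tested. Lists of fibroblast, blood and endothelial markers summed to at most 6.26, 0.261 and 0.958 CPM in any library. The 4 neuroendocrine markers, 3 of them at 0 in every library, summed to between 0.110 and 0.398 CPM in the DOX-negative and between 0.470 and 0.739 CPM in the DOX-positive libraries.

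The cells expressed the simple-epithelial keratins strongly and the basal keratins almost not at all. Levels were compared between genes per transcript length, as transcripts-per-million (TPM) rescaled without 5 short noncoding RNAs that took between 34.4% and 64.4% of the deposited TPM of a library. On this scale KRT7 led the DOX-negative cells at 965 ± 118 TPM (SD, n = 3), rank 119 among all genes. KRT8 followed at 448 ± 36.9, KRT18 at 420 ± 14.98 and KRT19 at 383 ± 27.7 TPM. KRT7 was above KRT8 in every library with no overlap of the groups of values, whereas KRT8 overlapped KRT18 and KRT18 overlapped KRT19, although within each of the 3 libraries the order was KRT8, KRT18, KRT19. KRT80 was lower, at 94.0 ± 10.5 TPM. KRT81, at 3.59 ± 0.129 TPM, and KRT15, at 1.83 ± 0.0885 TPM, were far below these. In the DOX-positive cells the order was KRT7 at 1162 ± 27.1, rank 103, then KRT8 at 787 ± 61.9, KRT19 at 754 ± 30.1 and KRT18 at 722 ± 3.32 TPM. KRT8 and KRT19 overlapped there, with KRT8 higher in 2 of 3 libraries, whereas KRT19 was above KRT18 in every library without overlap. KRT80 followed at 70.7 ± 5.69 TPM, and KRT15 at 2.25 ± 0.543 TPM overlapped KRT81 at 1.86 ± 0.599 TPM. The order of KRT18 and KRT19 was thus the opposite in the 2 groups. No test was made of levels between genes.

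**Figure D1:**
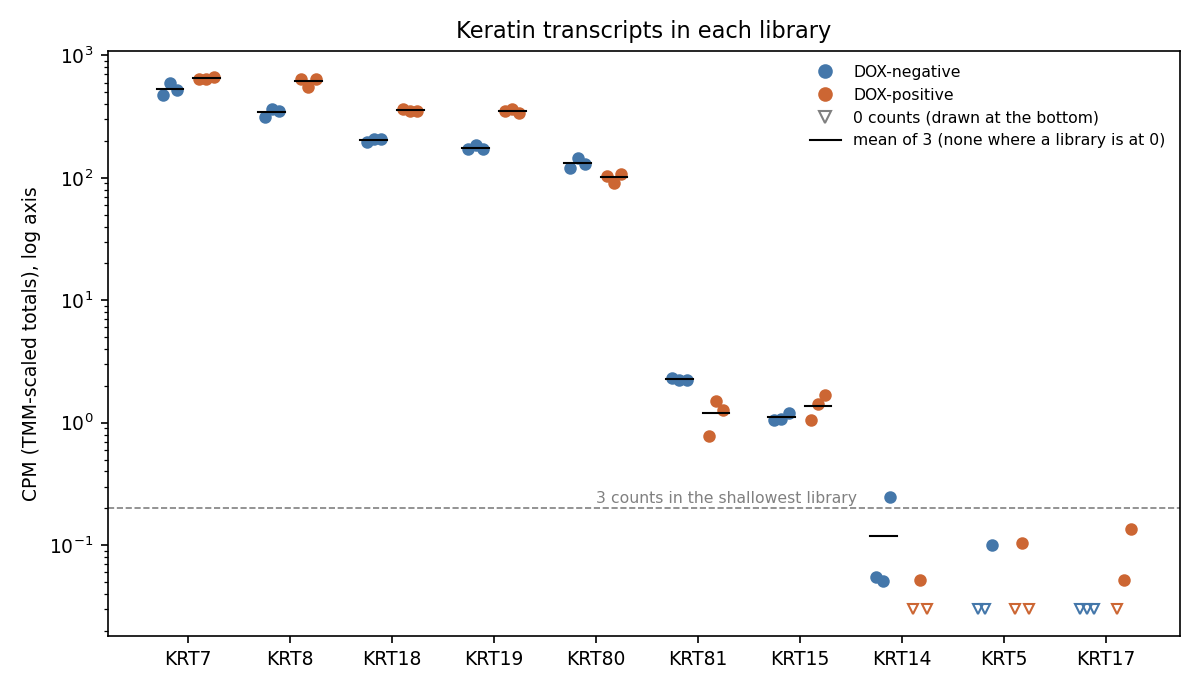
Each point is 1 library, with its level in CPM on a log axis, for the 10 keratins in DOX-negative (blue) and DOX-positive (orange) cells; bars are means of 3 and triangles are libraries at 0 counts. KRT7, KRT8, KRT18, KRT19 and KRT80 lie near or above 100 CPM, KRT81 and KRT15 near 1 CPM, and KRT14, KRT5 and KRT17 around or under the level of 3 counts.

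To see how the keratins differed between DOX states, counts of 14292 genes with enough reads were tested with edgeR's quasi-likelihood F-test, with p-values adjusted over all of them (Benjamini-Hochberg, 0.05). Of the 10 keratins 7 could be tested. KRT7, KRT8, KRT18 and KRT19 were higher in DOX-positive cells (KRT7 not on the deposited TPM), KRT80 and KRT81 were lower, and KRT15 did not pass. That is 6 of 7 tested, where 26.7% of all genes tested passed, with 4 higher, where 13% of all genes were higher, and 2 lower, where 13.7% of all genes were lower. Scaling by total counts alone, in place of TMM, moved the split over all genes from 1861 higher and 1955 lower to 1507 and 2329, and that over the keratins stayed at 4 and 2. The CPM values of the 2 groups did not overlap for 6 of the 7, as for 39.8% of all genes tested. The median log2 fold change was 0.29 over the 7 keratins and -0.0034 over all genes tested. In these bulk cultures fewer cells of a type and less RNA per cell cannot be told apart.

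KRT8 and KRT18 are each other's main filament partners. KRT8 was at 316, 367 and 350.17 CPM without DOX and at 648, 556 and 644 CPM with DOX. Every DOX-positive library was above every DOX-negative library, and DOX-positive replicate 2 was the lowest of its group. KRT8 rose from a mean of 344 ± 25.9 to 616 ± 51.9 CPM (SD, n = 3 each). Its edgeR log2 fold change was 0.84 with a standard error (SE) of 0.0712 (Benjamini-Hochberg adjusted p = 1.38e-08). KRT18 was at 197, 208 and 207 CPM without DOX and at 364, 354 and 353 CPM with DOX. The groups were widely separated and the libraries within each were close together. KRT18 rose from 204 ± 5.95 to 357 ± 6.25 CPM, an edgeR log2 fold change of 0.81 (SE 0.0596; adjusted p = 1.61e-09). The pair thus rose by 1.79-fold and 1.75-fold.

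KRT19 is a short type I keratin of simple epithelia and ducts that lacks the usual tail domain. It was at 171, 187 and 171 CPM without DOX and at 352, 367 and 341 CPM with DOX. Replicate 2 was the highest in both groups, and the groups were far apart. The means were 176 ± 9.05 and 353 ± 13.1 CPM, a 2.00-fold difference and an edgeR log2 fold change of 1.00 (SE 0.0629; adjusted p = 1.37e-10). It was the only one of the 7 tested keratins that also passed a size threshold of 1 on the log2 scale, which 2.57% of all genes tested passed together with the adjusted p. That pass was narrow. KRT19 was under the size threshold with total counts (0.97), in thinned libraries (0.99), with the filter of at least 10 counts in every library (0.9987) and on rescaled TPM (0.98), and when replicate 1 (0.98) or 3 (0.98) of the DOX-negative group or replicate 2 (0.97) of the DOX-positive group was left out, while its adjusted p passed in each of these.

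KRT7, a type II keratin of ducts and glands, had the highest rescaled TPM of the keratins, with a smaller log2 fold change than KRT8, KRT18 and KRT19. It was at 477, 592 and 523 CPM without DOX and at 648, 642 and 662 CPM with DOX. The DOX-negative values were spread widely, and the highest of them, replicate 2, was still below every DOX-positive value. KRT7 rose from 530.53 ± 57.7 to 650.70 ± 10.4 CPM, 1.23-fold, an edgeR log2 fold change of 0.29 (SE 0.0701; adjusted p = 0.00326), but its difference was -0.09 on the log2(TPM + 1) scale of the deposited TPM, before the short noncoding RNAs were removed. On that scale the median of all genes was -0.35, and KRT7 was 0.26 above it. On the rescaled TPM it was higher by 0.28 and did not pass (limma adjusted p = 0.100).

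KRT80 and KRT81 are type II genes like KRT7 and KRT8 but were lower with DOX. KRT80 was at 119.69, 145 and 129.96 CPM without DOX and at 104, 91.4 and 107 CPM with DOX. The groups did not overlap, with DOX-negative replicate 1 the nearest to the DOX-positive values. KRT80 fell from 132 ± 12.96 to 101 ± 8.37 CPM, to 0.765 of the DOX-negative level, an edgeR log2 fold change of -0.39 (SE 0.0785; adjusted p = 0.000822).

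KRT80 and KRT8 thus moved in opposite directions. Over the whole KRT80 transcript only 0.420% of 50-base windows were shared with any other gene.

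KRT81 was at 2.31, 2.25 and 2.24 CPM without DOX, from 42, 44 and 45 counts. With DOX it was at 0.784, 1.51 and 1.28 CPM, from 18, 29 and 19 counts. The groups did not overlap, and DOX-positive replicate 1 was the lowest. KRT81 fell from 2.27 ± 0.0392 to 1.19 ± 0.372 CPM, an edgeR log2 fold change of -0.95 (SE 0.309; adjusted p = 0.0270). The call rested on few reads. It was lost without DOX-negative replicate 1 (adjusted p = 0.0748), 2 (0.0631) or 3 (0.0540) or when leaving out DOX-positive replicate 1 (0.151, log2 fold change -0.69) or 3 (0.0529), and it was kept without DOX-positive replicate 2 (0.0140). It was also lost with DESeq2 (adjusted p = 0.0546). Because KRT81 shares many windows with KRT86 and KRT83, the 3 genes were also summed, a choice made after the data were seen. The sum was 68, 65 and 65 counts without DOX and 34, 50 and 34 with DOX, a log2 fold change of -0.71 (edgeR adjusted p = 0.0427). KRT81 itself gave most of these counts in every library, so the sum is not independent of the KRT81 call. KRT86 alone did not pass (log2 fold change -0.19). KRT87P, which also shares KRT81 windows, was not in the sum.

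The remaining 4 genes are keratins known from basal cells. KRT15 had 19, 21 and 24 counts without DOX and 24, 27 and 25 with DOX, that is 1.04, 1.07 and 1.19 against 1.04, 1.41 and 1.68 CPM. The groups overlapped, and the log2 fold change of 0.29 was smaller than its SE of 0.339 (edgeR adjusted p = 0.571). KRT14 had 1, 1 and 5 counts without DOX and 0, 1 and 0 with DOX. KRT5, the usual type II partner of KRT14, had 0, 0 and 2 counts without DOX and 0, 2 and 0 with DOX. KRT17 had 0 counts in all 3 DOX-negative libraries and 0, 1 and 2 with DOX. These 3 did not have enough reads to be tested, and a difference between DOX states was not detectable at this depth.

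**Figure D2:**
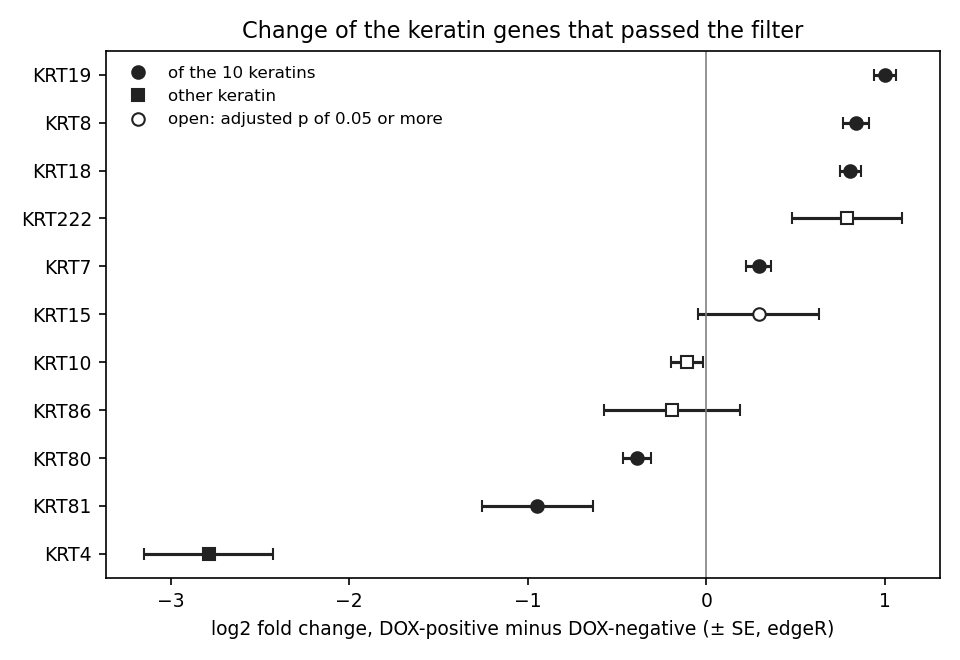
Points are log2 fold changes (DOX-positive minus DOX-negative, edgeR, n = 3 libraries each) with bars of 1 SE for the 11 keratin genes that could be tested; circles are among the 10 keratins, squares are other keratins, and open symbols have an adjusted p of 0.05 or more. KRT19, KRT8, KRT18 and KRT7 (not on the deposited TPM) lie to the right of 0 and KRT80, KRT81 and KRT4 to the left, with KRT4 farthest from 0 at -2.79.

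Of the other 45 keratin genes of the table, 22 had 0 counts in every library, 19 had reads but too few to be tested, none above the 14 counts of KRT34 in 1 library, and 4 were tested. KRT4, a type II keratin of mucosal squamous epithelium, had 52, 64 and 46 counts without DOX and 12, 6 and 5 with DOX. Every DOX-positive library was well below every DOX-negative library, from 2.81 ± 0.494 to 0.391 ± 0.115 CPM. KRT4 fell by 2.79 on edgeR's log2 scale (SE 0.359; adjusted p = 5.12e-06). KRT10, a type I keratin of differentiating epidermis, was the only other keratin above the level of KRT81 in both groups, at 44.8 and 41.0 rescaled TPM, and its log2 fold change was -0.11 (adjusted p = 0.407). KRT86 had 17, 19 and 19 counts without DOX and 14, 20 and 13 with DOX, a log2 fold change of -0.19 (adjusted p = 0.762). KRT222 had 24, 25 and 23 against 42, 55 and 26 counts. These did not overlap in CPM, but its log2 fold change of 0.79 (SE 0.308) did not pass (edgeR adjusted p = 0.0625).

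The make-up of the keratin pool was then described from rescaled TPM, with no test. As above, levels between genes and their ratios could depend on how shared reads were counted. All keratin genes together summed to 2215, 2601 and 2289 TPM without DOX and to 3540, 3501 and 3604 TPM with DOX. The total was thus higher in every DOX-positive library, at 3548 ± 51.8 against 2368 ± 205 TPM (SD, n = 3 each). Type I keratins summed to 852 ± 40.7 TPM without DOX and 1524 ± 31.9 TPM with DOX, and type II keratins to 1516 ± 166 and 2024 ± 81.1 TPM. The ratio of type II to type I was 1.66, 1.89 and 1.77 without DOX and 1.34, 1.24 and 1.40 with DOX. Type II transcripts were in excess in every library, less so in each DOX-positive library than in any DOX-negative one.

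Ratios between named keratins differed in how they varied with DOX state. KRT8 to KRT18 was 1.01, 1.11 and 1.07 without DOX and 1.12, 0.993 and 1.15 with DOX, near parity in every library with overlapping groups. KRT7 to KRT8 was 2.11, 2.25 and 2.08 without DOX and 1.40, 1.61 and 1.44 with DOX, with the groups apart. KRT19 to KRT18 was 0.911 ± 0.0376 and 1.04 ± 0.0429. KRT80 to KRT8 was 0.210 without DOX and 0.0899 with DOX on average. KRT7 held 40.6% of all keratin TPM without DOX and 32.8% with DOX, while KRT8 held 18.9% and 22.2%, KRT18 17.8% and 20.4%, and KRT19 16.2% and 21.3%. KRT80 held 3.96% and 1.99%. KRT7, KRT8, KRT18 and KRT19 together held between 93.4% and 93.7% in the DOX-negative and between 96.4% and 96.6% in the DOX-positive libraries.

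**Figure D3:**
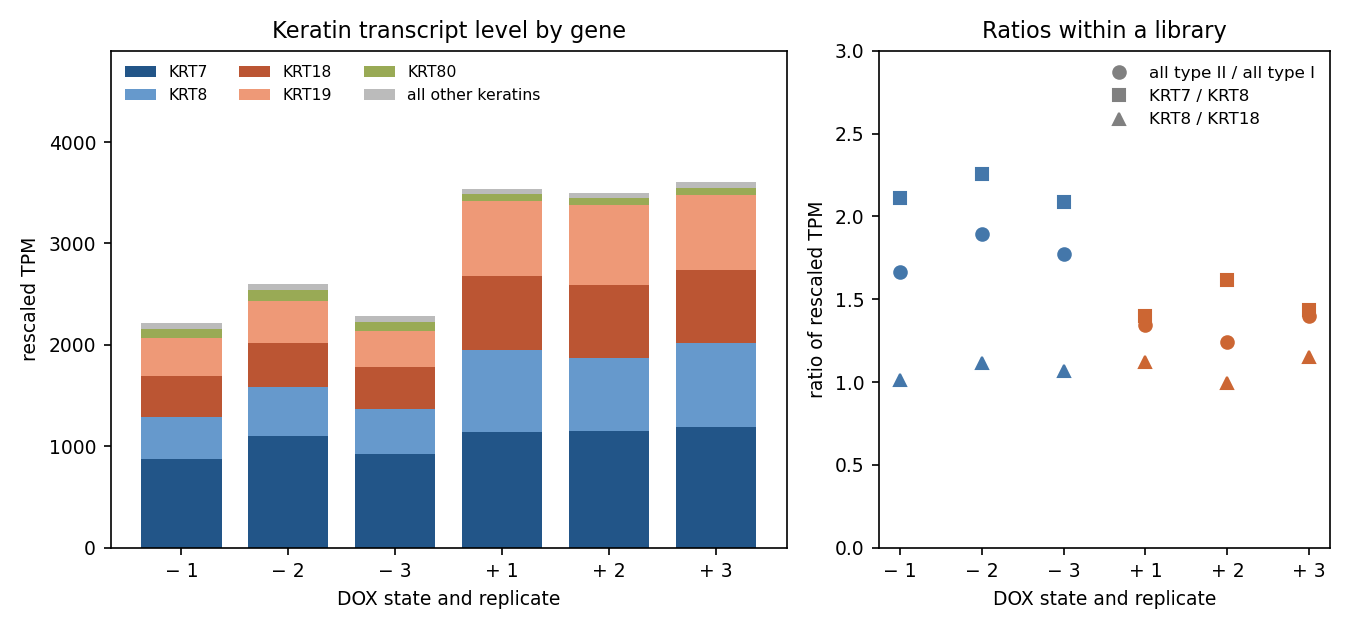
Left, stacked bars of rescaled TPM for each keratin in each library (minus, DOX-negative; plus, DOX-positive; number, replicate); right, ratios of rescaled TPM within each library, blue without and orange with DOX. The total is above 3500 TPM in the DOX-positive libraries and at most 2601 TPM in the others, the KRT7 to KRT8 and type II to type I ratios are lower with DOX, and KRT8 to KRT18 stays near 1.

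Keratin filaments are anchored at desmosomes between cells and at hemidesmosomes on the basement membrane, and the genes of these structures were described beside the keratins. Of 13 desmosome genes 8 were tested, 5 were higher and 1 was lower, with a median log2 fold change of 0.41. Of all genes tested 13% were higher and 13.7% were lower, and the gene lists were chosen with earlier results known. PKP3, a plakophilin that binds keratin-linked plaques, was higher by 0.66 on edgeR's log2 scale (SE 0.118; adjusted p = 0.000240). PERP, a desmosomal membrane protein, was higher by 0.53 (SE 0.0639, adjusted p = 1.91e-06), and DSC2, a desmosomal cadherin, by 0.49 (SE 0.0703, adjusted p = 1.73e-05). DSP, or desmoplakin, which ties keratins to the plaque, was higher by 0.41 (adjusted p = 4.05e-05) and JUP, or plakoglobin, by 0.40 (adjusted p = 0.000444), but on the deposited log2(TPM + 1) scale they were at 0.02 and -0.00020. DSC3, the desmocollin of basal and stratified layers, was lower by 0.44 (log2 fold change -0.44, SE 0.118, adjusted p = 0.00815), a call lost without DOX-positive replicate 1 (adjusted p = 0.0684). DSG2, a desmosomal cadherin of simple epithelia, did not pass, at 547 CPM without and 558 CPM with DOX.

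All 15 plakin and hemidesmosome genes were tested. Of these 7 were higher, 1 was lower and 7 did not pass, with a median log2 fold change of 0.21, where 13% of all genes tested were higher and 13.7% lower. The integrin chains ITGA6 and ITGB4, which form the hemidesmosome's laminin receptor, rose by 0.60 on the log2 scale (edgeR adjusted p = 3.96e-07) and 0.58 (adjusted p = 3.04e-06), and PLEC, or plectin, which links that receptor to keratins, rose by 0.49 (adjusted p = 3.23e-05). EVPL, or envoplakin, was the one that fell, with a log2 fold change of -0.35 (adjusted p = 0.0225). Its call was lost without DOX-negative replicate 2 (0.139) or when leaving out DOX-positive replicate 2 (0.0833).

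Among the other intermediate filament genes there was no common direction. Of 13 listed, 10 were tested, 3 were higher and 3 were lower, with a median of -0.04. The shares over all genes tested were 13% higher and 13.7% lower. VIM, or vimentin, the filament of mesenchymal cells and of many cultured carcinoma lines, had a mean CPM of 1003 ± 48.7 in the DOX-negative and 1027 ± 20.7 in the DOX-positive group (SD, n = 3), and did not pass (log2 fold change 0.03, edgeR adjusted p = 0.733). NES, or nestin, a filament of progenitor cells, fell from 7.21 ± 0.974 to 2.96 ± 0.218 CPM (log2 fold change -1.28, adjusted p = 2.03e-05). SYNM, or synemin, fell by 0.49 on the log2 scale (adjusted p = 0.000228). The neuronal filaments INA and NEFM were higher, by 0.77 (adjusted p = 2.47e-05) and 0.68 (adjusted p = 0.0354).

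The nuclear lamins LMNA and LMNB2 differed little, with log2 fold changes of 0.25 (edgeR adjusted p = 0.0180, but -0.14 on the deposited log2(TPM + 1) scale) and -0.22 (adjusted p = 0.0237). The weaker of these calls depended on single libraries. NEFM was lost without DOX-negative replicate 3 (adjusted p = 0.139) or when leaving out DOX-positive replicate 1 (0.0545), 2 (0.0559) or 3 (0.102). LMNA was lost without DOX-negative replicate 1 (0.161) or when leaving out DOX-positive replicate 1 (0.0809) or 3 (0.0721), and LMNB2 without DOX-negative replicate 2 (0.0790) or 3 (0.0654) or when leaving out DOX-positive replicate 2 (0.114). With the replicate number as a block, NEFM (0.0546) and LMNB2 (0.0583) were not called. NEFM was also lost with DESeq2 (0.0606) and in thinned libraries (0.0584), and LMNA (0.181) and LMNB2 (0.108) on rescaled TPM.

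Transcription factors known to control keratin genes in epithelia were described last, together with cornified envelope genes. Of 13 factors 8 were tested, 3 were higher and none was lower, with a median of 0.11, where 13% of all genes tested were higher and 13.7% lower. KLF4 was higher by 0.51 on the log2 scale (edgeR adjusted p = 0.00187), ELF3 by 0.45 (adjusted p = 0.0217) and KLF5 by 0.31 (adjusted p = 0.0143, but -0.08 on the deposited log2(TPM + 1) scale). The ELF3 call was lost without DOX-negative replicate 1 (0.0784) or 3 (0.0836) or when leaving out DOX-positive replicate 1 (0.0637) or 2 (0.0647). The KLF5 call was lost without DOX-negative replicate 2 (0.0850) or when leaving out DOX-positive replicate 1 (0.0772). TP63, the factor that marks basal cells, had at most 4 counts in any library, and GRHL2, a factor of simple epithelia, had 0 counts without DOX and 3, 0 and 2 with DOX.

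Of 16 cornified envelope genes, which belong to the surface of stratified epithelia, 6 had 0 counts in every library and 5 were tested. Of these 2 were higher and none was lower, with a median of 0.32, where 13% of all genes tested were higher and 13.7% lower. SCEL, or sciellin, was at 135, 122 and 108 CPM without DOX and at 386, 434 and 369 CPM with DOX. All DOX-positive libraries were far above the others, with an edgeR log2 fold change of 1.71 (SE 0.0779; adjusted p = 2.07e-12). SFN, or stratifin, an adaptor protein of epithelial cells, was higher by 0.50 (adjusted p = 1.48e-05).

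**Figure D4:**
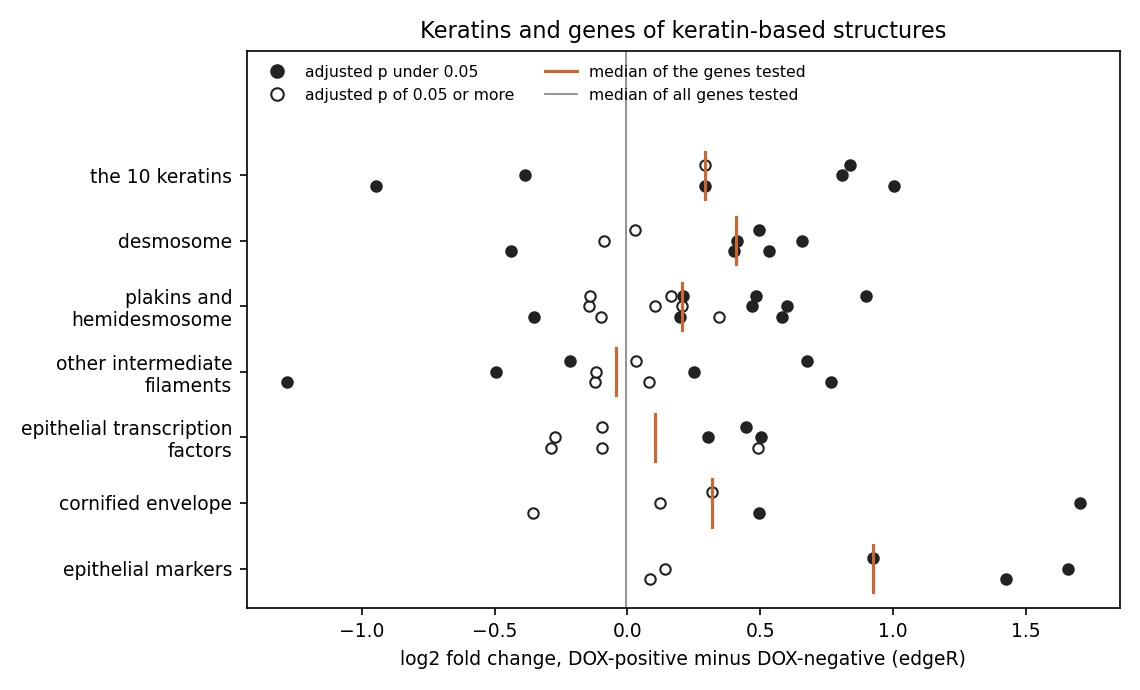
Each circle is 1 tested gene at its log2 fold change (DOX-positive minus DOX-negative, edgeR), filled where the adjusted p was under 0.05, for the 10 keratins and 6 other gene lists; orange ticks are medians of each list and the grey line is the median of all genes tested. The desmosome, plakin and hemidesmosome, and epithelial marker medians are right of the line at 0.41, 0.21 and 0.92, and other intermediate filaments are spread on both sides with a median of -0.04.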

How the data were processed

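From triplicate cultures the authors made libraries with a stranded, poly(A)-selecting mRNA kit. The samples were grouped by DOX state and replicate number as given in their titles, and the columns of both tables were matched to titles by the same 2 items, since the columns abbreviate the line DU145TR where the titles have DU145DR. The submitters' processing notes name STAR, DESeq2 and GRCh38; versions, annotation and counting settings are not given in the sources used here. The authors deposited whole-number read counts for 28008 genes and a table of TPM values. In the deposited TPM, RN7SL1, RN7SL2, RN7SL3, RN7SK and RPPH1 held up to 64.4% of a library, so levels per length were rescaled without them. Replicates differed by more than counting noise, so none was a plain copy of another. Whether any were made from the same RNA cannot be told this way.

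Counts were tested in R 4.3.3 with edgeR 4.0.16 (filterByExpr, TMM factors of 0.986 to 1.03, glmQLFit and glmQLFTest, two-sided, no covariate, Benjamini-Hochberg adjustment, threshold 0.05). This replaces DESeq2 as the study's tool, which was run as an alternative (DESeq2 1.42.0). SE is the size of the log2 fold change over the square root of F. CPM uses TMM-scaled totals. Reads carry no stated molecular identifiers, so floors of 3 counts cover counting error only. TPM values were tested as log2(TPM + 1) or log2(TPM + 0.1) with limma 3.58.1. Tests were checked on simulated data. Coordinates, coding identities and shared windows come from GENCODE 29. Some genes and sequences are not reported here. The keratins and the gene lists were chosen with earlier results of these data known. The genes named were the 10 keratins, MUC1, every other tested keratin, defining markers by level, and up to 4 genes of each further list that passed the test with the largest changes; DSP, JUP, DSG2, EVPL, LMNA, LMNB2, VIM, TP63, GRHL2 and KRT34 fall outside this rule and were named after their values were seen. Alternatives were other scalings, filters, units, thinning, the replicate number as a block, added pseudogene counts and leaving out each library.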

Additional observations from a re-analysis of the deposited data

How the results depend on the processing

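The number of keratins called was 6. It stayed at 6 with total counts, RLE factors, thinned libraries, added pseudogene counts, the replicate block, and a filter that was absent or asked for at least 10 counts per library, and was 5 with DESeq2 and on rescaled TPM. It was between 5 and 6 when each library was left out in turn, KRT81 being the call lost. Adding pseudogene counts could hardly move a call. For KRT8 and KRT18 the count table held only KRT8P41 and KRT18P55, with at most 2 and 10 counts in any library. A size of at least 1 on the log2 scale left 1 keratin and 368 of all genes. On the deposited TPM, limma called 0 keratins with a pseudocount of 1 (3 at an unadjusted p under 0.05: KRT19, KRT80 and KRT81) and 1, KRT81, with 0.1. Of all genes, 480 (26 higher, 454 lower) and 523 (36 higher, 487 lower) were then called, and 2432 on rescaled TPM, against 3816 with edgeR. The deposited TPM shifted the median of all genes by -0.35 (pseudocount 1) and -0.39 (0.1) on the log2 scale. With a pseudocount of 1, KRT8, KRT18, KRT19 and KRT80 there kept their direction (0.44, 0.41, 0.61 and -0.76, or 0.79, 0.76, 0.96 and -0.41 less that median) but not their call (limma adjusted p of 0.268, 0.295, 0.150 and 0.0726). Of the genes named outside the keratins as called, NES, SCEL, EPCAM, ESRP1 and MUC1 kept their calls on that scale and the rest lost them. On rescaled TPM, DSC3 (0.0640), EVPL (0.0973), LMNA (0.181), LMNB2 (0.108), KLF5 (0.158) and ELF3 (0.0627) lost theirs.

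Directions reversed for 5 genes with the deposited TPM. KRT7 was at -0.0932 with a pseudocount of 1 and -0.0933 with 0.1, LMNA at -0.139 and -0.140, VIM at -0.358 and -0.358, KLF5 at -0.0812 and -0.0821, and JUP at -0.000204 with a pseudocount of 1. VIM was also at -0.000216 with total counts. KRT86, not called in any fit, ranged from -0.39 to 0.0224 when each library was left out, the highest without DOX-positive replicate 1. KRT222 passed where genes needed at least 10 counts in every library (adjusted p = 0.0458). The summed hair keratins were added after seeing the data.

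No sign of pairing by replicate number was seen. The correlations between libraries of the same number, after removing group means, were -0.0189, -0.0950 and -0.0273. With 3 libraries per group these values cannot decide whether the libraries were paired. With the replicate block 3158 of all genes were called, 3136 of them among the 3816, the keratin calls were unchanged, and among the other named genes NEFM and LMNB2 lost theirs. Leaving out each library gave between 2784 and 3645 calls over all genes. Depth limits KRT5, KRT14, KRT15, KRT17 and KRT81 most.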
